A study of Mus musculus with 2 samples.

Results

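At 451 of the 23946 listed regions, H3K9me2 reads were missing from the middle 2000 bp in both libraries while reads lay around it. These empty-centre regions were the regions on chromosomes 1 to 19 with 0 signal in all 10 central bins of 200 bp in both libraries and a summed signal of at least 20 over the other 40 bins of both libraries, called the flank sum here. They were thus selected on the read signal of both libraries. They made up 1.93% of the 23339 regions on these chromosomes (exact binomial interval at the 95% level 1.76% to 2.12%) and 6.19% (5.65% to 6.77%) of the 7281 regions over the flank threshold. The central values and the flank sum, by which the regions were chosen, are therefore given as a description and carry no test.

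H3K9me2 was profiled by ChIP-seq in 2 sorted populations of MC1-ZE7 cells, an embryonic stem (ES) cell line from the mouse strain 129S6/SvEvTac. The Emerald-positive population (high fraction) and the Emerald-negative population gave 1 library each and stand for Zscan4-positive and Zscan4-negative cells. Both populations grew without feeders in serum and LIF, a cytokine that keeps ES cells undifferentiated, and both were precipitated with the same H3K9me2 antibody (Abcam ab1220). Emerald is a green fluorescent protein, known in this line as a reporter driven by the Zscan4c promoter, so the groups are as clean as the sort by fluorescence made them. As the table holds no genes, the identity of the cells could not be checked against marker genes.

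H3K9me2 is dimethylation of lysine 9 on histone H3. In ES cells it is placed largely by the methyltransferases G9a and GLP, it spreads over broad stretches of silent chromatin, and it is typically low at active promoters and enhancers. Zscan4 genes encode zinc finger proteins that ES cells express in bursts, together with other genes of the early embryo. No input library was used here, so a missing modification and missing recovery of reads cannot be told apart at any region below. Regions are given by their mm9 positions, without sequences or genes, because no mm9 genome or annotation was used here.

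Values are reads recovered from the deposited signal, or the scaled signal itself, in which 1 Emerald-positive read is worth 1.12 and 1 Emerald-negative read 0.902. Over all windows there were 219416 Emerald-positive and 270338 Emerald-negative reads. The flanks of the empty-centre regions held 5528 and 6648 of them. Each region had a median of 11 flank reads (range 3 to 53) in the Emerald-positive and 14 (4 to 54) in the Emerald-negative library, and no region lacked flank reads in either. A count of 0 in the central 2000 bp of a region allows up to 3 reads per library, so an empty centre is a centre with no detected read at this depth, not one shown to lack the mark.

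Empty centres were more frequent where the flank sum, which chose the regions, was low. Among all regions on chromosomes 1 to 19, 25.4% had no central read in either library, most of them with few reads anywhere. Over the flank threshold the share with an empty centre was 11.0% (9.09% to 13.1%) at flank sums of 20 to 22 and 1.83% (0.792% to 3.57%) at 50 or more. Another 761 regions over the threshold had 1 central read and 846 had 2, so the empty-centre regions were the end of a graded series. The 6830 regions over the threshold with a central read served for comparison. They were weighted so that their flank sums were distributed as in the empty-centre regions, which gave both sets a median flank sum of 24.7 with quartiles of 22.0 and 29.2. Regions that share their libraries do not replicate each other, so differences between the sets are described with no test.

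Such gaps were more often found near the midpoint of the windows than far from it. When the same criteria were applied to a 2000 bp block moved along the window in steps of 200 bp, 451 regions met them at the midpoint. At the 22 positions at least 2000 bp away from it, 157 to 199 regions did, with a median of 177.5, which the count at the midpoint exceeded 2.54-fold. The number of regions over the flank threshold also changed with the block. As a share of these, 6.19% met the criteria at the midpoint and 2.49% to 3.15% at the outer positions. The scan reuses the signal that chose the regions and is a description only. The highest count was 462, for a block centred 400 bp above the midpoint in genome coordinates, and 249 of these were also empty at the midpoint. At the 22 outer positions between 5 and 24 of the regions counted were also empty-centre regions.

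**Figure D1:**
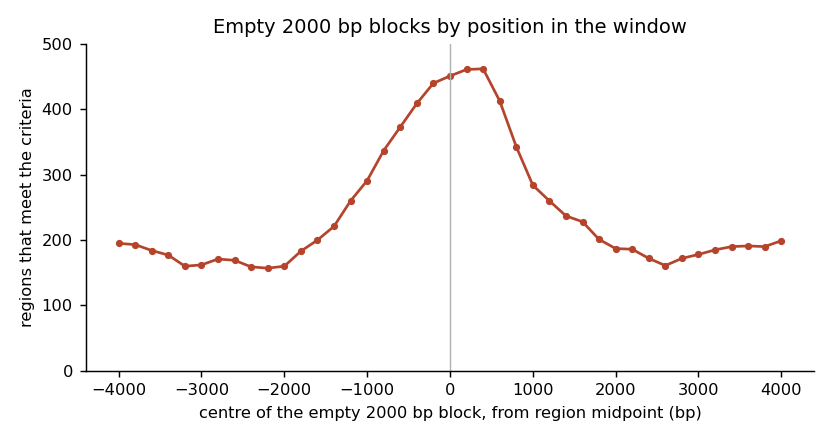
Number of regions on chromosomes 1 to 19 (y axis) with no read in a 2000 bp block and a signal of at least 20 in the rest of the window, against the position of the block's centre relative to the region midpoint in bp (x axis). The count is 451 at the midpoint, 462 at 400 bp above it and 157 to 199 at 2000 bp or more from it.

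The gaps often reached past the 2000 bp that the criteria demanded. The unbroken empty stretch around the midpoint, with no read of either library, had a median length of 2800 bp (quartiles 2400 and 3600 bp, longest 6600 bp). In 47 regions it ended at the edge of the central bins on both sides, and in 248 it went beyond on both. A gap of at least 3000 bp was found in 216 regions (47.9%), and one of at least 4000 bp in 73 (16.2%). Toward lower coordinates the empty stretch had a median of 1200 bp from the midpoint, and toward higher coordinates 1400 bp. It was longer toward higher coordinates in 208 regions, longer toward lower coordinates in 165 and equal in 78. Windows run in genome direction, so these sides are not upstream and downstream of a gene.

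The listed region itself lay wholly inside the gap in 446 of the 451 cases (98.9%). The criteria largely fix this, since a gap is at least 2000 bp long and 12 of the regions are wider than that. Gap length did not follow region width in any regular way: the median gap was 3000 bp for regions up to 400 bp wide, 2800 bp for those of 1600 to 2000 bp and 3200 bp for the 12 wider than 2000 bp. At 44 empty-centre regions (9.76%) the gap also held the midpoint of at least 1 other listed region.

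**Figure D2:**
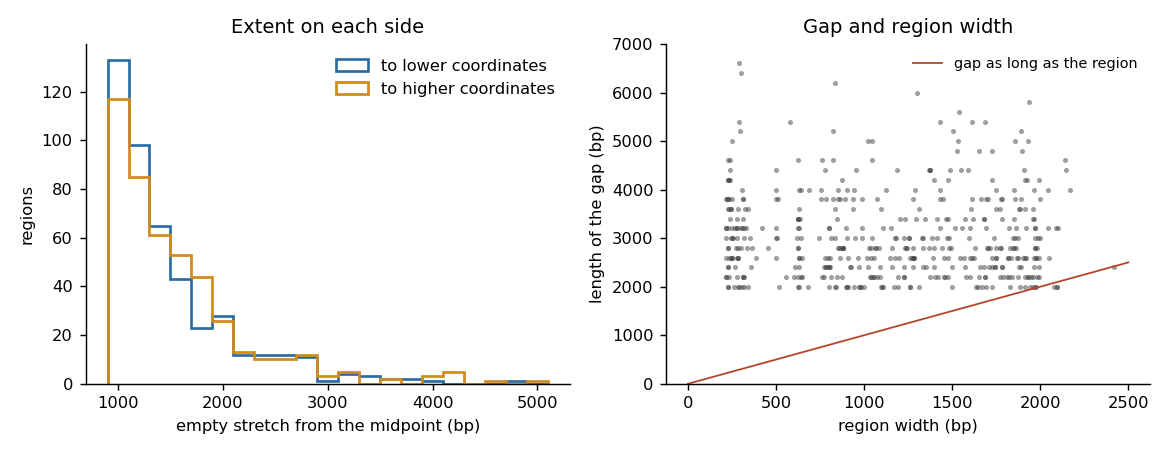
Left, number of empty-centre regions (y axis) by the length in bp of the empty stretch from the midpoint to each side (x axis). Right, length of the whole gap against region width, both in bp, 1 point per region; gaps start at 2000 bp by definition, have a median of 2800 bp, and nearly all points lie above the line of equal length.

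The mean H3K9me2 signal of the empty-centre regions rose step by step with distance from the midpoint. Zones were measured from the midpoint, not from the edge of each gap. The empty stretch reached at least 2000 bp at 89 regions toward lower and at 91 toward higher coordinates. The averages thus mix gaps of different lengths and do not show how the signal rises beside a single gap. Between 1000 and 2000 bp from the midpoint the summed signal of both libraries averaged 0.504 per bin, against 0.673 in the weighted comparison regions. It was 0.650 against 0.707 between 2000 and 3000 bp, 0.771 against 0.697 between 3000 and 4000 bp, and 0.775 against 0.692 from 4000 bp to the end of the window. As the flank sums were matched, less signal near the central bins had to be balanced by more farther out. All regions on chromosomes 1 to 19, most of them below the flank threshold, averaged 0.414 in the innermost and 0.456 in the outermost of these zones. A dip at the centre was not particular to the empty-centre regions. Within 1000 bp of the midpoint the weighted comparison regions averaged 0.501 and all regions 0.300. The 1000 to 2000 bp zone averaged 0.453 toward higher coordinates and 0.555 toward lower coordinates. These averages rest on 487 Emerald-positive and 528 Emerald-negative reads above and 572 and 678 below the midpoint. Clumps of reads at single regions are included, and the difference was not tested. The comparison regions showed 0.673 on both sides.

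**Figure D3:**
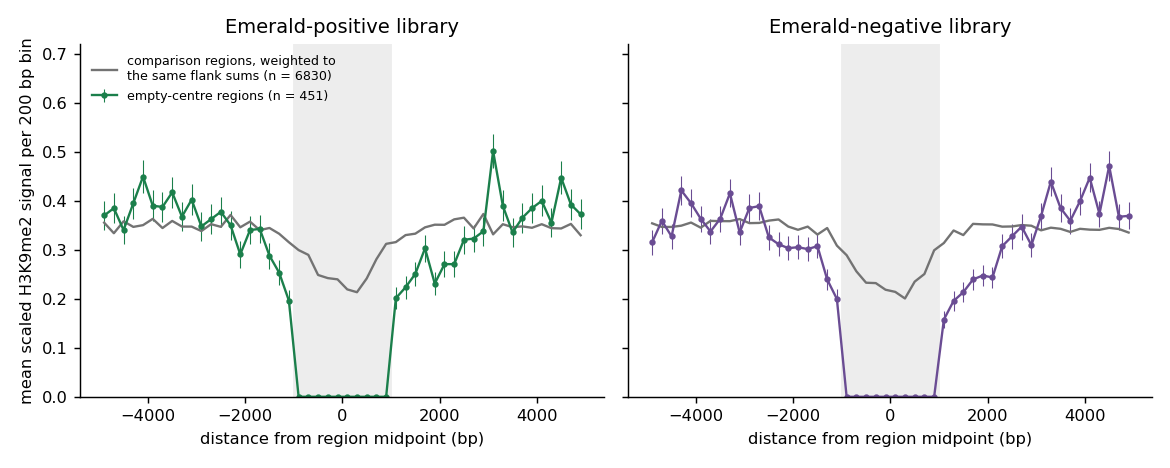
Mean scaled H3K9me2 signal per 200 bp bin (y axis) against distance from the region midpoint in bp (x axis) in each library, for the empty-centre regions (coloured, bars are counting standard errors) and the weighted comparison regions (grey). The shaded central 2000 bp is 0 by definition, and the coloured lines climb from the edge of the shading and lie mostly above the grey lines beyond 3000 bp.

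Not every gap lay between flanks that were marked alike. Reads lay on both sides in 450 of the 451 regions, and 326 (72.3%, interval 67.9% to 76.4%) had at least 25% of the flank sum on each side. The other 125 (27.7%) had 75% or more on 1 side, against a weighted share of 14.1% in the comparison regions and 28.2% of all regions on chromosomes 1 to 19, most of which have fewer reads. The heavier side held a median of 65.2% of the flank sum, against 61.2% in the comparison regions and 65.2% in all regions. In 34 regions (7.54%) a single bin held 25% or more of the flank sum, against 1.94% and 24.99%. A median of 16 of the 40 flank bins held a read, against 17 and 11. These values come from the signal that chose the regions. Reads gathered on 1 side or in few bins more readily leave a centre empty. The differences from the comparison regions are therefore a description only.

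One-sided and clumped reads were more frequent at the top of the flank sums than below. Of the 10 empty-centre regions with the highest flank sums, 8 had 75% or more of the signal on 1 side, and 8 had at least 50% of their reads within 1 kb. Among the other 441 this held for 117 and 40. The criteria largely fix this difference, since many reads spread evenly over the window would seldom leave the centre empty. No comparison regions of equally high flank sums were set beside these 10. The highest flank sum, 93.5, belonged to a region of 1931 bp on chromosome 4 (mm9, 118215625 to 118217556) with 40 Emerald-positive and 54 Emerald-negative reads. There 38 and 54 of these reads lay above the midpoint, 28 and 38 of them between 3800 and 4800 bp, beyond a gap of 5000 bp. This is a gap beside a marked block and not inside one.

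A region on chromosome 12 (70457362 to 70458538) came second, with 43 Emerald-positive and 46 Emerald-negative reads, of which 28 and 26 fell in the single bin centred at 4500 bp. On chromosome 5 a region of 310 bp (114626334 to 114626644) had 39 and 40 reads, 19 and 18 of them in the bin at -3300 bp. In both regions the libraries carried the clump in the same bin. How duplicate reads were treated was not stated, so the number of separate molecules behind such a clump is unknown.

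A second region on chromosome 4 (10839815 to 10840619) had 53 Emerald-positive and 28 Emerald-negative reads, a log2 ratio of scaled signal of 1.23 (counting interval 0.55 to 1.95). Of these, 44 and 16 lay between 3800 and 4800 bp above its midpoint. Broader blocks flanked a region of 1993 bp on chromosome 9 (103253109 to 103255102), with 32 and 42 of its 35 and 45 reads above the midpoint. A region of 232 bp on chromosome 15 (98764536 to 98764768) had 29 and 38 of its 32 and 40 reads below the midpoint, and its gap ran on for 3200 bp to the other side.

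A region on chromosome 6 (5658021 to 5658867) was the most evenly flanked of the 10. It had 13 Emerald-positive and 27 Emerald-negative reads below and 5 and 11 above a gap of 2200 bp, with 1 other listed region within 200 kb. The remaining 3 of the 10 were more lopsided. On chromosome 7 (39056171 to 39056997) 26 of 26 Emerald-positive and 25 of 26 Emerald-negative reads lay above the midpoint. On chromosome 18 (78012732 to 78012974) the bin at -2700 bp held 14 Emerald-positive and 4 Emerald-negative of 27 and 17 reads. On chromosome 19 (9209455 to 9209964) 74.7% of the flank sum lay below the midpoint, close to the 71.5% at the chromosome 6 region, and the bin at -2900 bp held 13 and 9 of 22 and 23 reads.

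The longest gaps also bordered a mark on 1 side. The longest, 6600 bp, surrounded a region of 289 bp on chromosome 2 (116946167 to 116946456) whose 14 Emerald-positive and 8 Emerald-negative reads all lay below the midpoint, so its upper end is the end of the window. A gap of 6400 bp on chromosome 7 (74517857 to 74518161) had 3 and 18 reads above the midpoint and 0 and 1 below, a log2 ratio of -2.35 (-4.75 to -0.59). Gaps of 6200 bp on chromosome 7 (27378430 to 27379266), 6000 bp on chromosome 5 (123996458 to 123997758) and 5800 bp on chromosome 2 (48668452 to 48670387) had 2, 2 and 3 reads above the midpoint and 19, 22 and 22 below. In all 5 the lighter side had 3 reads or fewer over both libraries.

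Gaps with similar numbers of reads on both sides were found among both the widest and the narrowest regions. The widest empty-centre region, 2419 bp on chromosome 7 (149330620 to 149333039), had 12 reads below and 13 above a gap of 2400 bp. The region after it, 2171 bp on chromosome 2 (179305125 to 179307296), had 14 and 12 reads around a gap of 4000 bp. The third, 2145 bp on chromosome 17 (83749575 to 83751720), was lopsided, with 30 and 4. The 3 narrowest with the highest flank sums were all 214 bp wide. They lay on chromosome 13 (99746424 to 99746638), with 24 reads below and 19 above, on chromosome 1 (121809472 to 121809686), with 16 and 15, and on chromosome 11 (57458714 to 57458928), with 16 and 11. Their gaps of 2200, 2200 and 3200 bp were more than 10 times as long as the regions. The other empty-centre regions of 214 bp, with lower flank sums, were less even. They had 4 reads below and 21 above (chromosome 13), 15 and 7 (chromosome 2) and 20 and 5 (chromosome 7).

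The flank threshold cuts through a continuous range of values. Just inside, regions on chromosomes 3 (52216778 to 52218032), 10 (126747773 to 126749452) and 16 (78377251 to 78377570) had flank sums of 20.0, 20.2 and 20.2 and gaps of 3000, 3400 and 3200 bp. Just outside, regions on chromosomes 1 (88050107 to 88051609) and 10 (59707658 to 59707894 and 85419877 to 85420590) each had a flank sum of 19.98 and a gap of 2400 bp.

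Region width, which the criteria did not use, was similar in the empty-centre and comparison regions. The median was 1176 bp (binomial interval of the median 1054 to 1275 bp), against 1099 bp in the weighted comparison regions and 1111 bp in all regions on chromosomes 1 to 19. The widths ran from 214 to 2419 bp. Regions of over 400 to 800 bp made up 12.2% of the empty-centre regions (9.32% to 15.6%), against a weighted 16.4% and 14.4% of all regions, and those of over 1600 to 2000 bp 28.2% (24.1% to 32.6%), against 23.1% and 23.7%. Of the 256 regions over the flank threshold that were wider than 2000 bp, 12 (4.69%, 2.4% to 8.0%) had an empty centre, the widest of 2419 bp.

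Empty-centre regions lay in neighbourhoods denser in listed regions than the comparison regions did, though less dense than those of all regions. The median number of other listed regions within 200 kb was 6 (interval 6 to 7), against 5 in the weighted comparison regions and 8 in all regions on chromosomes 1 to 19. Of the empty-centre regions, 110 (24.4%, 20.5% to 28.6%) had more than 10 such neighbours, against a weighted 18.1%. As a share of the regions over the threshold, empty centres went from 4.20% (2.81% to 6.02%) with no neighbour to 9.11% (7.46% to 11.0%) with 11 to 20 and 13.0% (6.92% to 21.7%) with 21 or more, the last from 12 of 92 regions. Flank sums moved with density as well. The median over the threshold was 30.1 with up to 5 neighbours and 25.8 with more than 10, and lower sums leave more centres empty, which the weighted shares take into account and these do not.

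**Figure D4:**
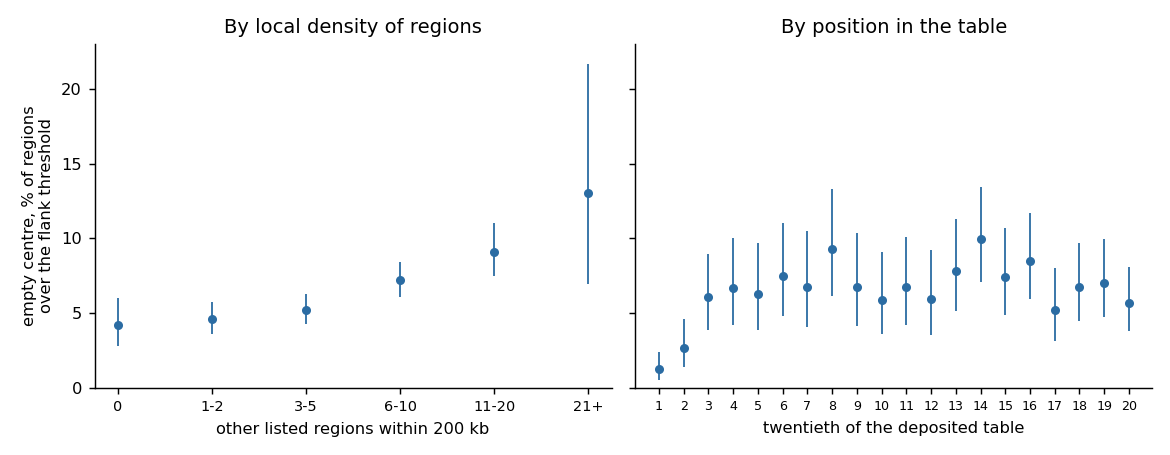
Share of regions over the flank threshold that had an empty centre, in percent (y axis), by the number of other listed regions within 200 kb (left) and by twentieth of the deposited table (right); bars are exact 95% binomial intervals. The share is 4.20% with no neighbour and 13.0% with 21 or more, and 1.22% in the first twentieth of the table.

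The empty-centre regions were spread over the genome and seldom next to each other. They lay at 445 places at least 10 kb apart. The 6 pairs closer than this share reads, the closest on chromosome 7 (4703517 to 4703757 and 4704349 to 4704577), whose midpoints were 826 bp apart in 1 gap of 4200 bp. All 19 chromosomes held some, from 10 on chromosome 19 to 34 on each of chromosomes 5 and 7. As a share of regions over the flank threshold they were fewest on chromosome 8, with 29 of 746 (3.89%, 2.62% to 5.54%), where the median flank sum over the threshold, 34.8, was also the highest of the 19. They were most frequent on chromosome 7, with 34 of 399 (8.52%, 5.97% to 11.7%). With matched flank sums chromosome 8 held 6.43% of the empty-centre regions (4.35% to 9.10%) and 8.09% of the weighted comparison regions, a difference within counting error. Along the chromosomes their median position was 47.8% of the way from the first to the last listed region, against 46.1% in the weighted comparison regions.

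Few of them stood at the top of the deposited table. The first twentieth of the table held 8 and the second 12, or 1.22% (0.529% to 2.39%) and 2.65% (1.38% to 4.59%) of their regions over the threshold, while the other twentieths ranged from 5.19% to 9.95%. The first 2 twentieths thus held 4.43% of the empty-centre regions (2.73% to 6.77%), against 14.1% of the comparison regions with matched flank sums. The sources do not say how the table was ordered.

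The flanks of the empty-centre regions carried about the same scaled H3K9me2 signal in Emerald-positive and Emerald-negative cells. The 5528 and 6648 flank reads gave scaled sums of 6197 and 5997, a log2 ratio of 0.047 with a counting interval of -0.0046 to 0.099. It was 0.0015 in the weighted comparison regions. The sign followed the unit of the threshold: with at least 20 reads in place of a signal of 20 the log2 ratio was -0.023 (-0.072 to 0.027). Without chromosome 8 it was 0.059 (0.0050 to 0.11). Counting intervals do not cover differences between cultures, sorts and precipitations, and with 1 library per population no test was made.

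At single regions few reads lay behind each ratio. The flank signal was at least 2-fold higher in the Emerald-positive library at 32 empty-centre regions (7.10%) and at least 2-fold lower at 22 (4.88%). The background was 12.0% higher and 11.0% lower among all regions on chromosomes 1 to 19, most with fewer reads, and 4.46% and 3.61% among the regions over the flank threshold. In the comparison regions of matched flank sums it was 5.14% and 4.66%, so these shares are no result about the empty-centre regions. The counting interval of the log2 ratio lay above 0 at 17 empty-centre regions (3.77%) and below 0 at 10 (2.22%). Among regions over the flank threshold the background was 2.77% above and 1.72% below, and in the comparison regions of matched flank sums it was 2.65% and 1.52%.

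**Figure D5:**
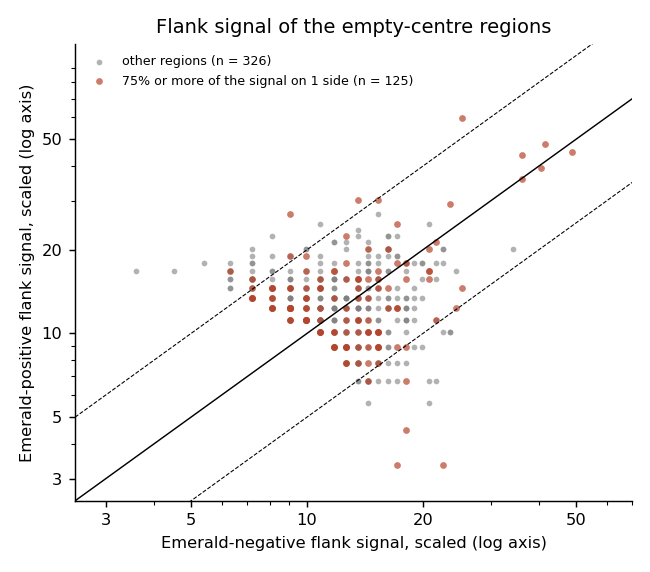
Scaled flank signal of the 451 empty-centre regions in the Emerald-positive (y axis) against the Emerald-negative library (x axis), both on log axes. Red points are the 125 regions with 75% or more of the signal on 1 side, the solid line marks equal signal and the dashed lines 2-fold differences. Points are drawn without a pseudocount, and 37 lie on or above the upper and 26 on or below the lower dashed line. With a pseudocount of 0.5 reads, as in the text, the counts are 32 and 22.

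The gap was also measured in each library alone, although the criteria required the central 2000 bp to be empty in both, which makes the gaps alike. The empty stretch had a median of 3800 bp (quartiles 3000 and 4800 bp) in the Emerald-positive and 3600 bp (2800 and 4400 bp) in the deeper Emerald-negative library. The 901 bins that closed a gap held 576 Emerald-positive and 682 Emerald-negative reads. The Emerald-positive share of 45.8% (43.0% to 48.6%) was within counting error of the 45.4% in all flank bins. Of these bins, 351 held reads of the Emerald-positive library alone, 433 of the Emerald-negative library alone and 117 of both.

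In the innermost flank zone, which overlaps many of the gaps, the Emerald-positive signal was slightly higher. The bins that closed a gap showed no such excess, with an Emerald-positive share of 45.8% against 45.4% in all flank bins. Between 1000 and 2000 bp from the midpoint 1059 Emerald-positive and 1206 Emerald-negative reads gave a log2 ratio of 0.13 (counting interval 0.0053 to 0.25). The comparison regions, here without weighting, had 0.019 (-0.0048 to 0.043) in that zone, an interval that holds 0. With weighting their signals there were 0.337 and 0.336. Within 1000 bp of the midpoint, where the empty-centre regions have no reads, the unweighted comparison regions had 0.081 (0.053 to 0.11). The 2 sets thus cannot be compared in that innermost zone. The intervals of the other 3 zones of the empty-centre regions held 0. By side, the log2 ratio between 1000 and 2000 bp was 0.20 (0.016 to 0.38) toward higher coordinates. Toward lower coordinates it was 0.068 (-0.095 to 0.23), an interval that holds 0. The lower bound for both sides together, 0.0053, lies close to 0. As 4 zones were examined, each also by side, the difference is near the limit of counting error.

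A centre empty in 1 library often held at least 1 read in the other. Over the flank threshold 987 regions had a centre empty in the Emerald-positive library alone and 730 in the Emerald-negative library alone. In all, 19.8% of these regions (18.8% to 20.7%) had no central read in the Emerald-positive and 16.2% (15.4% to 17.1%) none in the Emerald-negative library, which had 1.24 times the reads per unit of scaled signal.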

How the data were processed

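H3K9me2 ChIP-seq was analysed in 1 Emerald-negative and 1 Emerald-positive library. Cells were cross-linked (1% formaldehyde, 10 min) and sheared to 150 to 450 bp, 3 µg of antibody was used, and fragments of 200 to 300 bp, or 200 to 500 bp in a second experiment, were selected, per the labels' protocols. To which experiment the libraries belong is not given. The deposited table holds, per the file headers, a scaled signal in 50 bins of 200 bp around each region. Values were whole multiples of 1 step per library within 0.025, and division by the step recovered whole reads. Positions are in mm9, the build in the submitters' processing notes. Aligner and scaling total are not stated there.

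In 173 pairs of overlapping windows, offset by whole bins within 4 bp, 99.2% of the shared reads matched when both were read in genome direction from the region midpoints. Comparison regions were weighted in 9 strata of flank sum. Share intervals are exact (Clopper-Pearson) at 95%, and intervals of medians come from order statistics. Ratios use 2-sided exact binomial counting intervals, and 2-fold calls a pseudocount of 0.5 reads. Reads carried no molecular identifiers and may repeat a molecule, so intervals and limits cover counting error only. The functions were tested on simulated data. Regions were named by rule: the 10 highest flank sums, 5 longest gaps, 3 widest, 3 narrowest, and 3 on each side of the threshold. The criteria, comparisons and alternatives were chosen with earlier results of these data known. No genes were tested, as the table holds none. Python 3.11.15, numpy 2.4.6, pandas 2.3.3 and scipy 1.17.1 were used.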

Additional observations from a re-analysis of the deposited data

Results flagged for a closer look

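Outside the 19 chromosomes analysed, the same criteria were met on the X chromosome, which the comparisons above do not use. Of the 607 regions on the X and Y chromosomes, 41 were over the flank threshold, and 7 of these, all on the X, had an empty centre. This is more than the 3 regions set as the limit for such data.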

How the results depend on the processing

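The number of empty-centre regions, 451 as reported, was 1089 with a flank sum of at least 15, 98 with at least 30, 1514 with the central 6 bins empty and 129 with the central 14. Their median gap was then 3200, 2700, 2000 and 3800 bp, against 2800 bp. Regions at least 2-fold higher in the Emerald-positive flanks, 32 as reported, numbered 99, 5, 85 and 10, and those at least 2-fold lower, 22 as reported, 76, 3, 60 and 7. With at least 20 reads as the threshold 41 were lower, and the pooled log2 ratio was -0.023. Fewer or more regions enter by construction under these settings. The neighbours within 50 kb had a median of 2, against 1 in the comparison regions. The comparison regions' median of 5 neighbours was 6 and 4 with flank sums of 15 and 30, and 4 without weighting. Their median width was 1142 bp with regions at least 10 kb apart. Of 106 recomputed values, 82 stayed within 1.5 times the reported count or within its interval. The median width ranged from 1065 to 1255 bp. Leaving out regions with 25% of the flank sum in 1 bin, and moving the block by 1 bin, were added after seeing the data and moved no value beyond these limits. No paired analysis was possible because there is 1 library of each kind, and none could be left out. With medians of 11 and 14 flank reads, depth limits every single region.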
